A study of Mus musculus with 6 samples.

Results

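The nuclear genes of the respiratory chain and of ATP synthase were followed through 6 lists of histone acetylation intervals from mouse intestinal epithelial cells. These lists also held intervals away from promoters. The genes were chosen by name: protein-coding genes named in any of the 6 lists whose symbol began with Ndufa, Ndufb, Ndufc, Ndufs, Ndufv, Uqcr, Cox4, Cox5, Cox6, Cox7, Cox8 or Atp5, or was Sdha, Sdhb, Sdhc, Sdhd, Cyc1 or Cycs. This gave 80 of the 9704 protein-coding genes named in the lists, on 19 chromosomes. Being named in a list is itself a measured value, so that presence is no finding. The name rule covered 98 genes of the RefSeq gene table. Of the 20 it did not find in the lists, 3 stood there under other names (Atp5md as Usmg5, Atp5mpl as 2010107E04Rik and Ndufaf8 as 1810043H04Rik) and are not among the 80. Those 3 were called at their promoters in 4, 3 and 3 libraries.

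Acetylation of lysine 9 of histone H3 (H3K9ac) is a chromatin mark found mainly around the start sites of active genes. Chromatin immunoprecipitation and sequencing was done on epithelial cells from the distal intestine of C57BL/6 mice, with 1 H3K9ac antibody throughout. The mice were conventionally housed, monoassociated with E. coli (carrying that bacterium alone) or germ-free, with 2 libraries for each of the 3 groups. The labels do not say whether the 2 libraries of a group came from different animals, and their spread may be technical. The labels give no age or sex and no number of animals per library.

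The respiratory chain sits in the inner mitochondrial membrane and passes electrons from NADH and succinate to oxygen. Complex I takes electrons from NADH and complex II from succinate, complex III hands them to the carrier cytochrome c, and complex IV gives them to oxygen. Complexes I, III and IV pump protons, and complex V, the ATP synthase, uses the proton gradient to make ATP. Most subunits are encoded in the nucleus, while a small set of core subunits is encoded in mitochondrial DNA. In the gut, absorptive cells of the small intestine and colon draw much of their ATP from this chain, and the colonic epithelium can burn butyrate made by bacteria.

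The lists differed greatly in length. Replicates 1 and 2 held 3117 and 15352 intervals for conventional mice, 1988 and 870 for E. coli mice, and 4430 and 17094 for germ-free mice. Each library was labelled with 20 M reads. The background pileup, the number of extended reads per base taken as background, was not listed. It was derived from each listed line as (pileup + 1) / fold − 1, which assumes that 1 was added to signal and background. The median over lines was 0.413 and 0.381 in the conventional lists, 0.690 and 0.403 in the E. coli lists, and 0.733 in the first germ-free list. The second germ-free list gave no pileup. The lowest fold enrichment over background that was listed lay between 3.62 and 4.28, so a promoter without an interval may still carry the mark. The folds are the authors' per-interval values relative to each list, and below they serve only to rank genes within a list, while calls are compared between libraries. Of 12 epithelial marker genes, all had a promoter interval in at least 1 library and 6, Vil1 and Cdx2 among them, in all 6. No promoter interval was listed for any of 12 lymphocyte and myeloid markers, nor for any of 12 markers of stroma, endothelium, muscle or nerve.

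The promoters below show sequences that the results below refer to. Only the motifs named here are in capitals, and matches to other motifs outside them are in lower case. The Atp5b promoter is given because Atp5b, the catalytic beta subunit of ATP synthase, was the only one of the 80 genes called in all 6 libraries. Its capitals mark 5 CCAAT boxes (CCAAT on either strand). The promoters of Atp5g2, Atp5k, Cox6a1, Ndufa11 and Uqcrc1 are given because they hold the palindrome that NRF1 recognizes, a factor known to act on nuclear genes for mitochondrial proteins. In these the capitals mark that palindrome and, in Atp5k, also AAGGTCA. The promoters of Atp5g3 and Sdhd are given because they hold TCAAGGTCA on the opposite strand, marked in capitals, the extended site of oestrogen-related receptors (ERR). Each is the RefSeq promoter, 250 bases before to 50 after the start of the gene, on GRCm38.p6, read 5′ to 3′ on the gene's strand.
Atp5b (chr10:128083057-128083356, plus strand): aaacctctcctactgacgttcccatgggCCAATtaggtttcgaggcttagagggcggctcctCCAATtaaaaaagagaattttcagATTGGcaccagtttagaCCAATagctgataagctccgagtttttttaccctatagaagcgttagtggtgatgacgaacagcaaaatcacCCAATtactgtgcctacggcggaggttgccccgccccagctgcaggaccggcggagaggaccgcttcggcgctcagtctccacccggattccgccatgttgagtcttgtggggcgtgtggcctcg
Atp5g2 (chr15:102670998-102671297, minus strand): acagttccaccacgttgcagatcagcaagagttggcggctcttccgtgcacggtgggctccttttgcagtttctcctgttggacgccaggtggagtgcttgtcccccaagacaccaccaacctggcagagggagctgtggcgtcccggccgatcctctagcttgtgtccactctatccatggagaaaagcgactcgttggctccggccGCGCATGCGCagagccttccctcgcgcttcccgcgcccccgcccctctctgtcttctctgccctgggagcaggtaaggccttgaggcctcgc
Atp5k (chr5:108434350-108434649, minus strand): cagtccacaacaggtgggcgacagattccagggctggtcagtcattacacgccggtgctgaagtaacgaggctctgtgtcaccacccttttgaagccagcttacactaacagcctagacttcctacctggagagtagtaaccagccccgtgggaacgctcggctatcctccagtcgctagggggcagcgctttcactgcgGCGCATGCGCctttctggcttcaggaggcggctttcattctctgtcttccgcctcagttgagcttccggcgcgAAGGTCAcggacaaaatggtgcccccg
Cox6a1 (chr5:115348909-115349208, minus strand): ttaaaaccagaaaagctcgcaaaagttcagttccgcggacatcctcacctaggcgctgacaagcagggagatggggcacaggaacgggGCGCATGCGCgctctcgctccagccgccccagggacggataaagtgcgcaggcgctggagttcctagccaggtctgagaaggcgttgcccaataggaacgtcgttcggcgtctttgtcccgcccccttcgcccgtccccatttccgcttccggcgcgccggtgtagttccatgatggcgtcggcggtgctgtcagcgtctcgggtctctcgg
Ndufa11 (chr17:56717512-56717811, plus strand): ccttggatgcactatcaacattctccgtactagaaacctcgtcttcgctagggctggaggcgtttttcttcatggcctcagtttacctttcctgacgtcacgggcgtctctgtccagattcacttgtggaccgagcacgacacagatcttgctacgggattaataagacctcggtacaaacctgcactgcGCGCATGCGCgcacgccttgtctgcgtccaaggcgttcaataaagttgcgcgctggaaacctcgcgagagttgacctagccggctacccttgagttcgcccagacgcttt
Uqcrc1 (chr9:108936398-108936697, plus strand): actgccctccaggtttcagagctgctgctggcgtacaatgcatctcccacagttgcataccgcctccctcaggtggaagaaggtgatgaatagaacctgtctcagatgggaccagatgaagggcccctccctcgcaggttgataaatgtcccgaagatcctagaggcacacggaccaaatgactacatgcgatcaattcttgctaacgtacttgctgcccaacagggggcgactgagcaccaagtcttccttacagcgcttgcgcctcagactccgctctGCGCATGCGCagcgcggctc
Atp5g3 (chr2:73911277-73911576, minus strand): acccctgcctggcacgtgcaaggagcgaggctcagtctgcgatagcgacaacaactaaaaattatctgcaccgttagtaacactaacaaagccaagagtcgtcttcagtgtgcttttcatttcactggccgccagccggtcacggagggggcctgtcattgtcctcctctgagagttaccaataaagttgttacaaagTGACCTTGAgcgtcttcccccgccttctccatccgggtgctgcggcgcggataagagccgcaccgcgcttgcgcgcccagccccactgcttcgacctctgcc
Sdhd (chr9:50603800-50604099, minus strand): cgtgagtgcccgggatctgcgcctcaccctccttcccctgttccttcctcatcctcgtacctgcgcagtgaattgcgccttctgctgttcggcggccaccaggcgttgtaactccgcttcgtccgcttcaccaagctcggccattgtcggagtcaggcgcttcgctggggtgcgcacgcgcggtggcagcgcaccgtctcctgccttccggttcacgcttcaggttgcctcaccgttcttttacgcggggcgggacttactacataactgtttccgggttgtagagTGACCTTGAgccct

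The number of these genes with a promoter interval was highest in the 2 longest lists and lowest in the 2 shortest. A gene counts as marked where an interval assigned to it in the deposited list reached within 1000 bp of its start site on either side. In the conventional libraries 28 and 73 of the 80 genes were marked, against 20.5% and 74% of the 9704 named genes. In the E. coli libraries 20 and 4 were marked, against 9.5% and 4.23% of named genes. In the germ-free libraries 41 and 66 were marked, against 24.8% and 66.9% of named genes. As shares of the 80 these were 35% and 91.3% (conventional), 25% and 5% (E. coli), and 51.3% and 82.5% (germ-free). The share of respiratory genes was above that of all named genes in each of the 6 libraries, by the least in the shortest list, E. coli replicate 2. Of the 9704 named genes, 16.6% had no promoter interval in any library, against 3.75% of the 80. The part of this in the difference was not tested. With intervals of a −log10 q of at least 5, E. coli replicate 2 had none of the respiratory genes marked, against 0.649% of named genes. No test was run on this, since the genes were chosen with results of these data known.

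By group, the marked genes averaged 50.5 ± 31.8 in the conventional, 12 ± 11.3 in the E. coli-monoassociated, and 53.5 ± 17.7 in the germ-free libraries (SD, n = 2 each). The 2 E. coli values lay below all 4 others, and the conventional and germ-free values overlapped. The 2 E. coli lists were also the shortest, with the fewest marked genes of any kind (922 and 410, against 1990 and 7184 in conventional and 2409 and 6488 in germ-free libraries). With 2 libraries against 2, an exact permutation test cannot give a p below 0.3333. Set against the list, the 80 genes made up 1.41% and 1.02% of all marked genes in the conventional, 2.17% and 0.976% in the E. coli-monoassociated, and 1.70% and 1.02% in the germ-free libraries, and on this measure the 3 groups overlapped. When each list was cut to its 870 most significant intervals, 9 and 8 respiratory genes were marked in the conventional, 6 and 4 in the E. coli-monoassociated, and 12 and 2 in the germ-free libraries. At that equal length germ-free replicate 2 had the fewest of all, with 2.5% of the respiratory genes marked and 6.67% of all named genes.

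**Figure D1:**
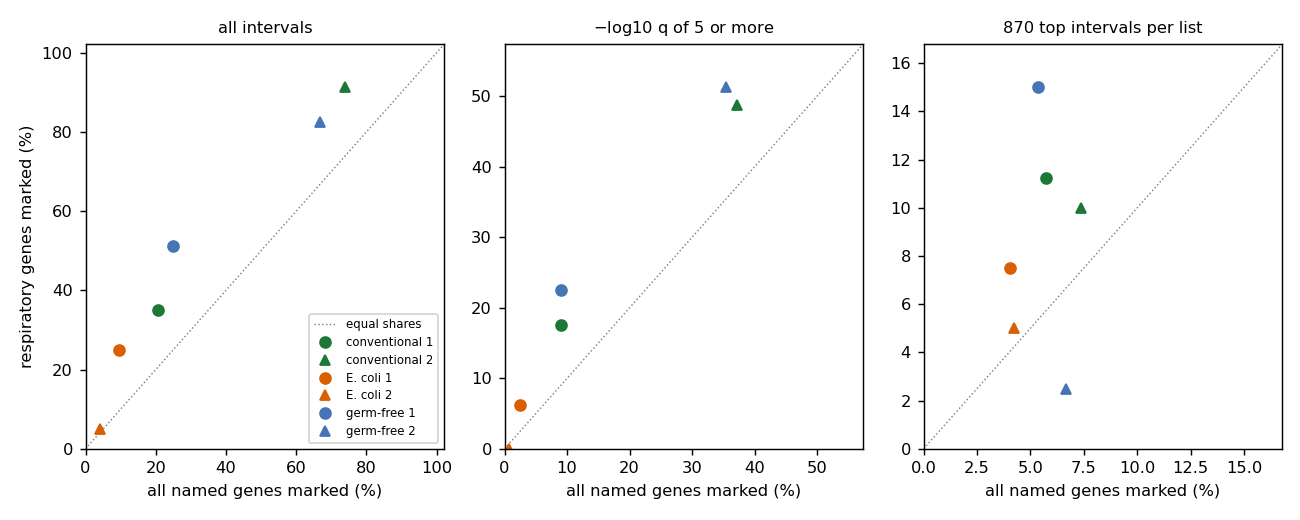
Percent of the 80 respiratory chain and ATP synthase genes marked (vertical axis) against percent of all 9704 named genes marked (horizontal axis), 1 point per library, for all intervals, for intervals with a −log10 q of at least 5, and for the 870 most significant intervals per list; axes differ between panels. Circles are replicate 1, triangles replicate 2, and the dotted line marks equal shares; with all intervals every point lies above it, with the q threshold E. coli replicate 2 lies below it at 0% against 0.649%, and with 870 intervals germ-free replicate 2 lies below it at 2.5% against 6.67%.

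By enrichment, the median respiratory gene ranked between percentile 40.7 and 63.9 of the marked genes of its list. A percentile here is the rank of a gene's strongest promoter interval by fold among all marked genes of its list. The median percentile of the respiratory genes was 55.2 and 56.1 in the conventional, 40.7 and 63.9 in the E. coli-monoassociated, and 53.6 and 53.8 in the germ-free libraries. Their median fold was 6.01 and 6.52 in the conventional lists (all marked genes 5.66 and 6.52), 5.33 and 6.06 in the E. coli lists (5.33 and 5.70), and 5.77 and 6.34 in the germ-free lists (5.77 and 6.34). Their pileups were small. The median summit had 7.5 and 8 extended reads in the conventional, 8 and 7.5 in the E. coli-monoassociated, and 9 in the first germ-free library, against a lowest listed pileup of 5 and 4, 6 and 5, and 6. Many calls thus stood a few reads above the lowest pileup listed.

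Across the 6 libraries, 77 of the 80 genes were marked at least once, against 83.4% of all named genes. Only 1 gene, Atp5b, was marked in all 6, against 2.26% of named genes. A further 10 were marked in 5 libraries and 20 in 4, which is 12.5% and 25% of the respiratory genes, against 4.37% and 8.63% of all named genes. There were 12 genes in 3 libraries, 26 in 2 and 8 in 1. The count in all 6 rests on the short E. coli lists: it was 3 without E. coli replicate 1, 8 without E. coli replicate 2 and 2 without germ-free replicate 1. Of the 26 genes in 2 libraries, 20 were marked in the 2 longest lists, conventional replicate 2 and germ-free replicate 2, as the map of calls by gene and library shows.

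**Figure D2:**
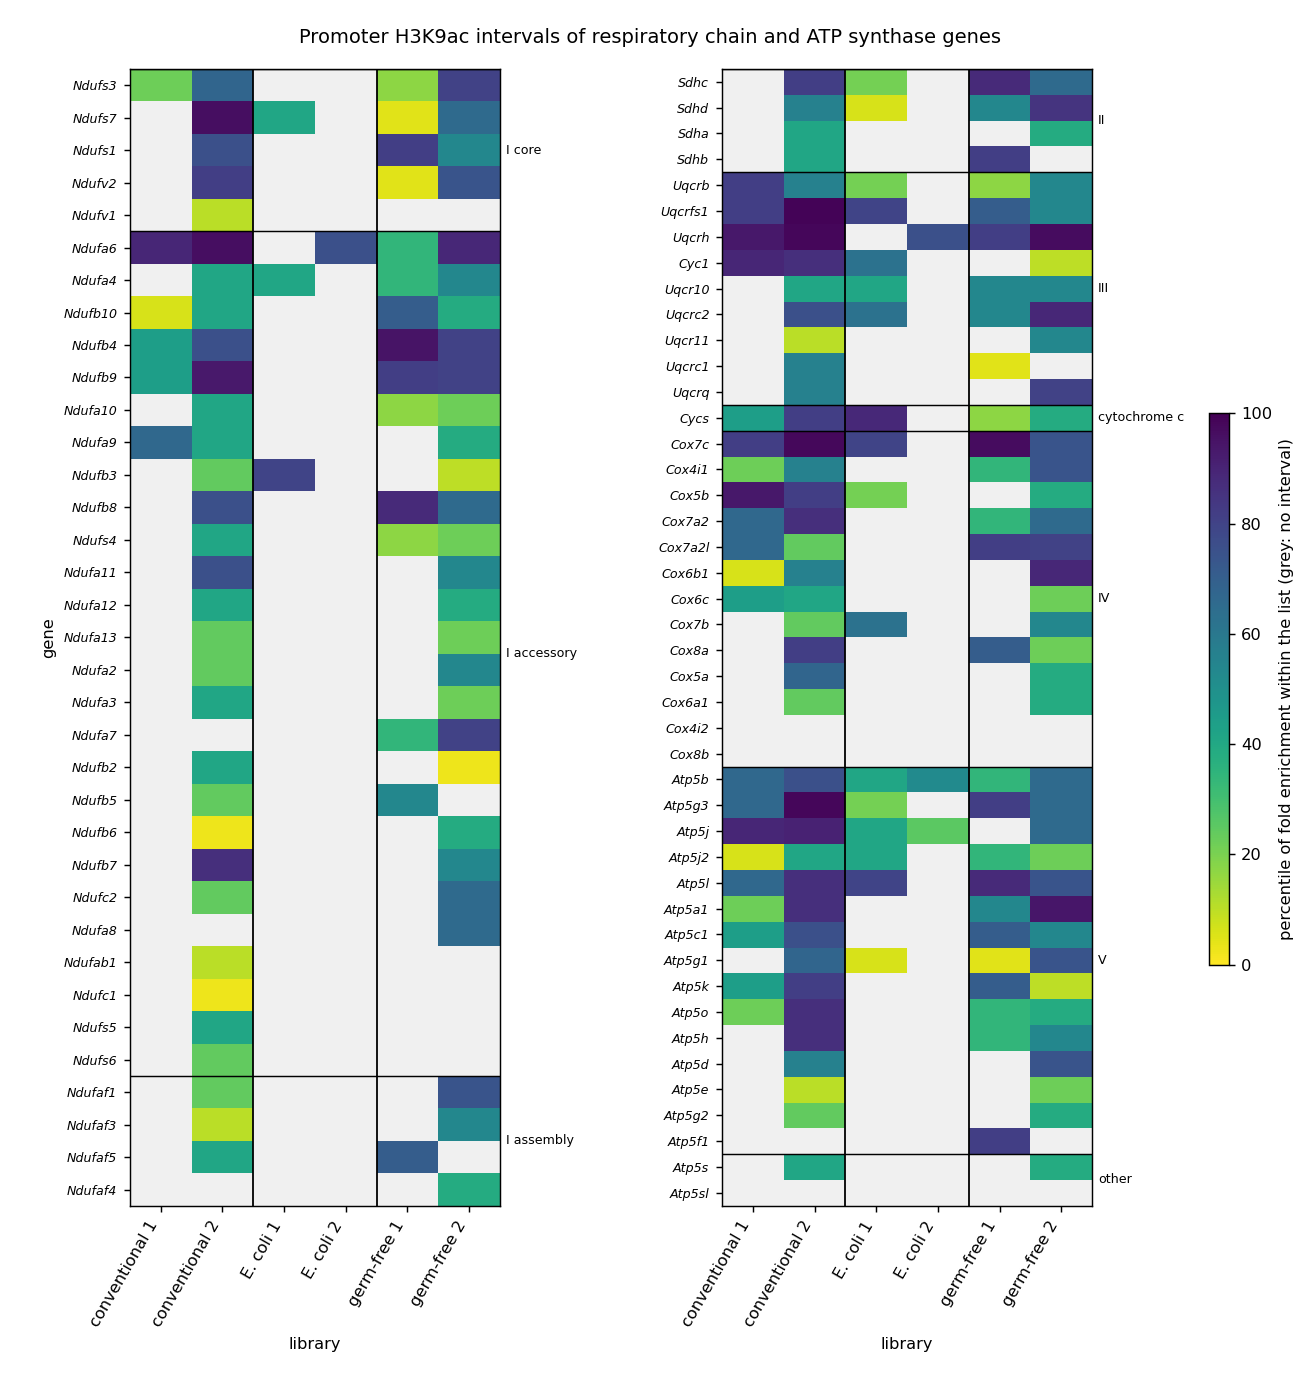
Each row is a gene (1 of the 80 is not drawn) and each column a library, grouped by respiratory complex; colour gives the percentile of the gene's strongest promoter interval within its list and grey means no promoter interval. Atp5b has a call in every column, the columns of conventional replicate 2 and germ-free replicate 2 are almost filled, and E. coli replicate 2 holds 4 calls.

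At Atp5b (chromosome 10, start site 128083307) the strongest promoter interval had a fold of 6.37 and 7.97 in the conventional lists, 5.33 and 5.70 in the E. coli lists, and 5.19 and 6.97 in the germ-free lists. Its percentile ran between 34.1 (germ-free replicate 1) and 75.4 (conventional replicate 2). These intervals spanned 128083329-128084048 and 128083366-128084328 in the conventional, 128083548-128083760 and 128083628-128083774 in the E. coli-monoassociated, and 128084141-128084318 and 128083236-128083987 in the germ-free lists. They began between 71 bp before and 834 bp after the start site. The printed Atp5b promoter ends at 128083356. In conventional replicate 2, both E. coli lists and germ-free replicate 1 these intervals lay wholly beyond that end. No base was called in all 6 libraries, and 2 of these intervals, in conventional replicate 2 and germ-free replicate 1, were also tied to the microRNA gene Mir677.

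Complex I, the NADH dehydrogenase, had 36 genes here with its assembly factors, and 70.1% of its calls lay in the 2 longest lists, against 70.5% of the calls of all named genes. Of 6 core subunits, which carry the flavin and iron-sulphur clusters, 2 and 6 were marked in the conventional, 1 and 0 in the E. coli-monoassociated, and 4 and 4 in the germ-free libraries. Ndufs1, the largest iron-sulphur subunit, ranked highest among them (mean percentile 70.3 over 3 libraries). It had no interval in conventional replicate 1 and a fold of 7.97 in replicate 2, none in either E. coli list, and 6.93 and 6.34 in the germ-free lists, in intervals shared with Eef1b2. Ndufv1, which binds NADH and flavin, was marked in conventional replicate 2 alone, with a fold of 4.35. Ndufs7, which carries the last iron-sulphur cluster before ubiquinone, was the only core subunit marked in an E. coli library: it had no interval and a fold of 12.3 in the conventional lists, 5.33 and none in the E. coli lists, and 4.04 and 6.97 in the germ-free lists.

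Of 26 accessory subunits, which surround the core, 5 and 24 were marked in the conventional, 2 and 1 in the E. coli-monoassociated, and 10 and 21 in the germ-free libraries. Ndufa6 ranked highest (mean percentile 76.7), with a fold of 7.78 and 12.3 in the conventional lists, no interval and 6.42 in the E. coli lists, and 5.19 and 9.50 in the germ-free lists. It was 1 of 4 genes marked in E. coli replicate 2, beside Atp5b, Atp5j and Uqcrh. The 2 accessory genes of E. coli replicate 1 were Ndufa4, at a fold of 5.33, and Ndufb3, at 6.51. Ndufa4 begins with a complex I name but its protein is now placed in complex IV. Ndufc1 ranked lowest of all 80 genes that were marked, at percentile 2.38 with a fold of 3.62 in conventional replicate 2 alone. Of 4 assembly factors, 0 and 3 were marked in the conventional, none in the E. coli-monoassociated, and 1 and 3 in the germ-free libraries, with mean percentiles between 32.1 (Ndufaf3) and 55.7 (Ndufaf5).

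The 8 genes marked in a single library were 7 of complex I and 1 of complex V. Ndufab1, which encodes the mitochondrial acyl carrier protein, Ndufc1, Ndufs5, Ndufs6 and Ndufv1 were marked in conventional replicate 2 alone, with folds between 3.62 and 5.79. Ndufa8 and Ndufaf4 were marked in germ-free replicate 2 alone, with folds of 6.97 and 5.70. Atp5f1, the b subunit of the ATP synthase stalk, was marked in germ-free replicate 1 alone, with a fold of 6.93 in an interval shared with Wdr77.

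Complex II, the succinate dehydrogenase that is also an enzyme of the citric acid cycle, has 4 subunits, and all were marked. There were 0 and 4 in the conventional, 2 and 0 in the E. coli-monoassociated, and 3 and 3 in the germ-free libraries. Sdhc, a membrane anchor, ranked highest (mean percentile 64.1), with no interval and a fold of 8.69 in the conventional lists, 4.74 and none in the E. coli lists, and 7.50 and 6.97 in the germ-free lists. Sdhd, the other membrane anchor, whose promoter is printed above, had no interval and 6.52 in the conventional lists, 4.14 and none in the E. coli lists, and 5.77 and 8.87 in the germ-free lists, in intervals shared with Timm8b. The catalytic subunits Sdha, which binds flavin, and Sdhb, which carries iron-sulphur clusters, had no interval in either E. coli list. Sdha was marked in both long lists (5.79 in conventional replicate 2 and 5.70 in germ-free replicate 2), and Sdhb in conventional replicate 2 (5.79) and germ-free replicate 1 (6.93).

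Complex III, the cytochrome bc1 complex, had 9 genes, of which 4 and 9 were marked in the conventional, 5 and 1 in the E. coli-monoassociated, and 6 and 8 in the germ-free libraries. Uqcrh, the hinge protein that helps cytochrome c dock, had the highest mean percentile of all 80 genes, 89.1. Its fold was 8.49 and 14.5 in the conventional lists, none and 6.42 in the E. coli lists, and 6.93 and 12.04 in the germ-free lists. In both conventional lists and in E. coli replicate 2 that interval lay wholly upstream of Uqcrh, and in all 5 libraries it was shared with Lrrc41, so the calls cannot be assigned to 1 of the 2 genes. Uqcrfs1, the Rieske iron-sulphur protein, had a fold of 7.08 and 15.9 in the conventional lists, 6.51 and none in the E. coli lists, and 6.35 and 6.34 in the germ-free lists, and its interval was not shared. The value of 15.9 was the highest among the 73 genes marked in conventional replicate 2.

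Cyc1, the cytochrome c1 haem subunit, had 7.78 and 9.41 in the conventional lists, 5.92 and none in the E. coli lists, and none and 4.43 in the germ-free lists. Uqcrc1, a core protein whose promoter with the NRF1 palindrome is printed above, ranked lowest of the complex (mean percentile 30.4), with no interval and 6.52 in the conventional lists, none in the E. coli lists, and 4.04 and none in the germ-free lists. Cycs, the electron carrier cytochrome c, was marked in 5 libraries, with a fold of 5.66 and 8.69 in the conventional lists, 7.10 and none in the E. coli lists, and 4.62 and 5.70 in the germ-free lists. It was the highest-ranked of the 20 respiratory genes in E. coli replicate 1.

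Complex IV, cytochrome c oxidase, had 13 nuclear genes, of which 7 and 11 were marked in the conventional, 3 and 0 in the E. coli-monoassociated, and 5 and 11 in the germ-free libraries. Cox7c, a small membrane subunit, ranked highest (mean percentile 85.9 over 5 libraries). Its fold was 7.08 and 13.8 in the conventional lists, 6.51 and none in the E. coli lists, and 9.23 and 7.60 in the germ-free lists. Cox5b, a subunit on the matrix side, had 8.49 and 8.69 in the conventional lists, 4.74 and none in the E. coli lists, and none and 5.70 in the germ-free lists, and tied with Uqcrh for the highest fold among the 28 genes of conventional replicate 1. Cox7b was the remaining complex IV gene marked in E. coli replicate 1, at a fold of 5.92. The lowest mean percentile was that of Cox6a1 (31.3), with folds of 5.07 in conventional replicate 2 and 5.70 in germ-free replicate 2 and no interval elsewhere.

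The 3 genes without a promoter interval were Cox4i2, Cox8b and Atp5sl. Cox4i2, a form of subunit 4 best known from lung, was named in the lists for intervals at least 15268 bp upstream of its start, in conventional replicate 2 and both germ-free libraries, the farthest of them also tied to Id1. Cox8b, the heart and skeletal muscle form of subunit 8, was named for 2 intervals of conventional replicate 2, the nearer 13080 bp upstream, both also tied to Nlrp6. Atp5sl, which RefSeq now calls Dmac2 and which is an assembly factor rather than a subunit, was named for an interval 12676 bp away in conventional replicate 2. The widely expressed forms Cox4i1 and Cox8a were marked in 4 and 3 libraries. Of the genes that the name rule covers but no list names under any symbol, 17 in all, several are known as forms of other tissues, such as the muscle forms Cox6a2 and Cox7a1 and the testis forms Cox6b2, Cox7b2 and Cox8c. Others are general complex I genes: Ndufa1, Ndufa5, Ndufb1, Ndufb11, Ndufs8 and Ndufv3. The remaining ones were Ndufa4l2, Ndufaf2, Ndufaf6, Ndufaf7, Ndufb4b and Ndufb4c.

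Complex V, the ATP synthase, had 10 of its 15 genes called in 4 or more libraries. Complex III had 6 of 9, complex IV 5 of 13, complex II 2 of 4 and complex I with its assembly factors 7 of 36, against 15.3% of all named genes. In all, 9 and 14 were marked in the conventional, 6 and 2 in the E. coli-monoassociated, and 11 and 14 in the germ-free libraries. Atp5l, the membrane subunit g, had a fold of 6.37 and 9.41 in the conventional lists, 6.51 and none in the E. coli lists, and 7.50 and 7.60 in the germ-free lists. Atp5g3, 1 of the genes for the proton-carrying c ring, had 6.37 and 14.5 in the conventional lists, 4.74 and none in the E. coli lists, and 6.93 and 6.97 in the germ-free lists. The other c-ring genes were Atp5g1, marked in 4 libraries, and Atp5g2, marked in the 2 longest lists only. All 3 genes encode the same mature c subunit.

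Atp5j, coupling factor 6 of the stalk, was with Atp5b 1 of the 2 genes marked in both E. coli libraries. Its fold was 7.78 and 10.1 in the conventional lists, 5.33 and 4.99 in the E. coli lists, and none and 6.97 in the germ-free lists. The intervals were shared with Gabpa, which starts on the opposite strand, and Gabpa itself was marked in all 6 libraries. In E. coli replicate 1 the call at Atp5j rests on an interval that begins 883 bp downstream of its start. Atp5a1 (alpha) and Atp5c1 (gamma) were marked in both conventional, neither E. coli and both germ-free libraries. Atp5d (delta) and Atp5e (epsilon) were marked in the 2 longest lists only, and Atp5e ranked lowest of the complex (mean percentile 16.3). The highest mean percentile of the complex was that of Atp5f1, 81.6, from its single call. Atp5s, which RefSeq now calls Dmac2l, was marked in the 2 longest lists with folds of 5.79 and 5.70.

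**Figure D3:**
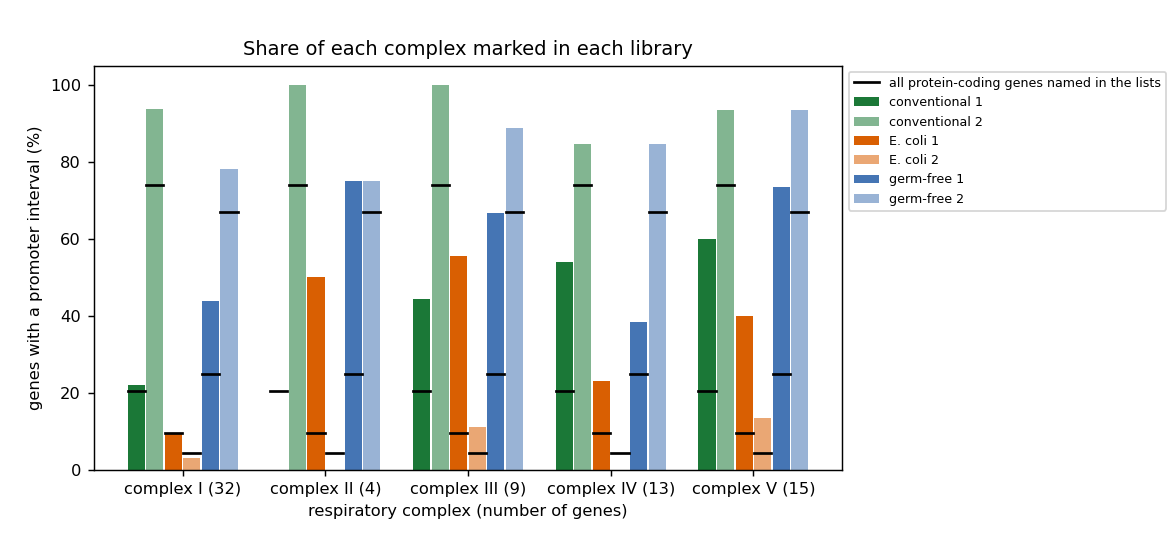
Percent of the genes of each complex with a promoter interval (bars, vertical axis) in each library, with the number of genes in parentheses on the horizontal axis and a black line at the percent of all 9704 named genes marked in that library. Assembly factors, cytochrome c and the 2 other genes taken in by prefix are not drawn; in the E. coli libraries complex III has 5 and 1 of 9 genes marked and complex IV 3 and 0 of 13.

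In the comparison of conventional with E. coli-monoassociated mice, 15 genes were marked in both conventional and neither E. coli library, against 12.6% of all named genes. That is 53.6% of the 28 respiratory genes marked in both conventional libraries, against 61.9% of the 1969 genes of any kind marked in both. Of those 28, 2 were marked in both E. coli libraries, 7.14% against 11.8% of the 1969, and 11 in 1. The 11 that ranked highest in the conventional lists were Cox7a2, Ndufb9, Atp5k, Atp5c1, Ndufb4, Atp5a1, Atp5o, Ndufa9, Cox7a2l, Ndufs3 and Cox6c. Cox7a2, a subunit of complex IV, led with folds of 6.37 and 9.41 in the conventional lists, none in the E. coli lists, and 5.19 and 6.97 in the germ-free lists. Ndufb9 followed with 5.66 and 10.9 in the conventional lists, none in the E. coli lists, and 6.93 and 8.24 in the germ-free lists, in intervals shared with Tatdn1. Over the other 9, folds lay between 4.95 and 6.37 in conventional replicate 1 and between 5.07 and 9.41 in replicate 2.

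The reverse pattern, both E. coli and neither conventional library, held no respiratory gene and 0% of named genes. The count of 15 depends on the libraries: it was 51 without conventional replicate 1 and 24 without E. coli replicate 1. With every list reduced to 870 intervals it was 0. The lengths of the lists moved with this count, and their part in it was not tested.

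In the comparison of conventional with germ-free mice, 1 gene was marked in both conventional and neither germ-free library, against 0.66% of named genes. Conversely, 1 gene was marked in both germ-free and neither conventional library, against 0.567% of named genes. It was Ndufa7, an accessory subunit of complex I, which had no interval in the conventional or E. coli lists and folds of 5.19 and 8.24 in the germ-free lists. Both its intervals were shared with the ribosomal protein gene Rps28, so the call cannot be assigned to 1 of the 2 genes, and with shared intervals left out the count was 0.

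There were 21 genes marked in all 4 conventional and germ-free libraries. They made up 75% of the 28 respiratory genes marked in both conventional libraries, against 61.1% of the 1969 genes of any kind marked in both. Of the 36 respiratory genes marked in both germ-free libraries they made up 58.3%, against 54.0% of the 2225 genes of any kind. The conventional count of 1 was 6 without conventional replicate 1 and 7 without germ-free replicate 2. The germ-free count of 1 was 15 without conventional replicate 2, 3 without germ-free replicate 1 and 2 without germ-free replicate 2. In both of these groups the second list was much the longer, and its part in these counts was not tested.

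In the comparison of E. coli-monoassociated with germ-free mice, no gene was marked in both E. coli and neither germ-free library, against 0% of named genes. Atp5j became the only such gene, a count of 1, when germ-free replicate 2 was left out. The reverse, marked in both germ-free libraries but in no E. coli library, held 19 genes, against 15% of named genes. That is 52.8% of the 36 respiratory genes marked in both germ-free libraries, against 65.6% of the 2225 genes of any kind marked in both. Of those 36, 1 was marked in both E. coli libraries, 2.78% against 10.4% of the 2225, and 16 in 1.

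The 12 of the 19 that ranked highest in the germ-free lists were Ndufb4, Cox7a2l, Ndufb9, Ndufb8, Atp5a1, Ndufs1, Atp5c1, Ndufa7, Ndufb10, Cox4i1, Cox7a2 and Ndufs3. Ndufb4, an accessory subunit of complex I, had no interval in the E. coli lists and folds of 8.66 and 8.24 in the germ-free lists, and in the conventional lists it had 5.66 and 7.97. Cox7a2l, counted here with complex IV, had none in the E. coli lists and 6.93 and 8.24 in the germ-free lists, and 6.37 and 5.07 in the conventional lists. Over the other 10, folds lay between 4.62 and 7.50 in germ-free replicate 1 and between 5.70 and 10.8 in replicate 2. The count of 19 was 33 without E. coli replicate 1 and 44 without germ-free replicate 1. With every list reduced to 870 intervals it was 0. The 2 comparisons with E. coli share the E. coli libraries, so their counts are not independent of each other.

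The intervals of respiratory genes lay mostly downstream of the start site. At the position most often covered, 71.4% and 84.9% of the marked respiratory genes had an interval in the conventional libraries, both at 350 bp downstream, against 43.0% and 61.8% of all marked genes at their own most covered positions. In the E. coli libraries it was 50% at 300 bp and 50% at 450 bp, against 34.7% and 34.4%. In the germ-free libraries it was 43.9% at 450 bp and 77.3% at 350 bp, against 35.5% and 55.8%. The start site itself was covered in 3.57% and 21.9% of marked respiratory genes in the conventional, 10% and 0% in the E. coli-monoassociated, and 9.76% and 21.2% in the germ-free libraries. In every library this was far below the downstream share, and E. coli replicate 2 rests on 4 genes. Where a gene had several start sites, distances were counted from the site of lowest coordinate. That site need not be the site near the interval. Its part in the difference between respiratory and all marked genes was not tested.

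**Figure D4:**
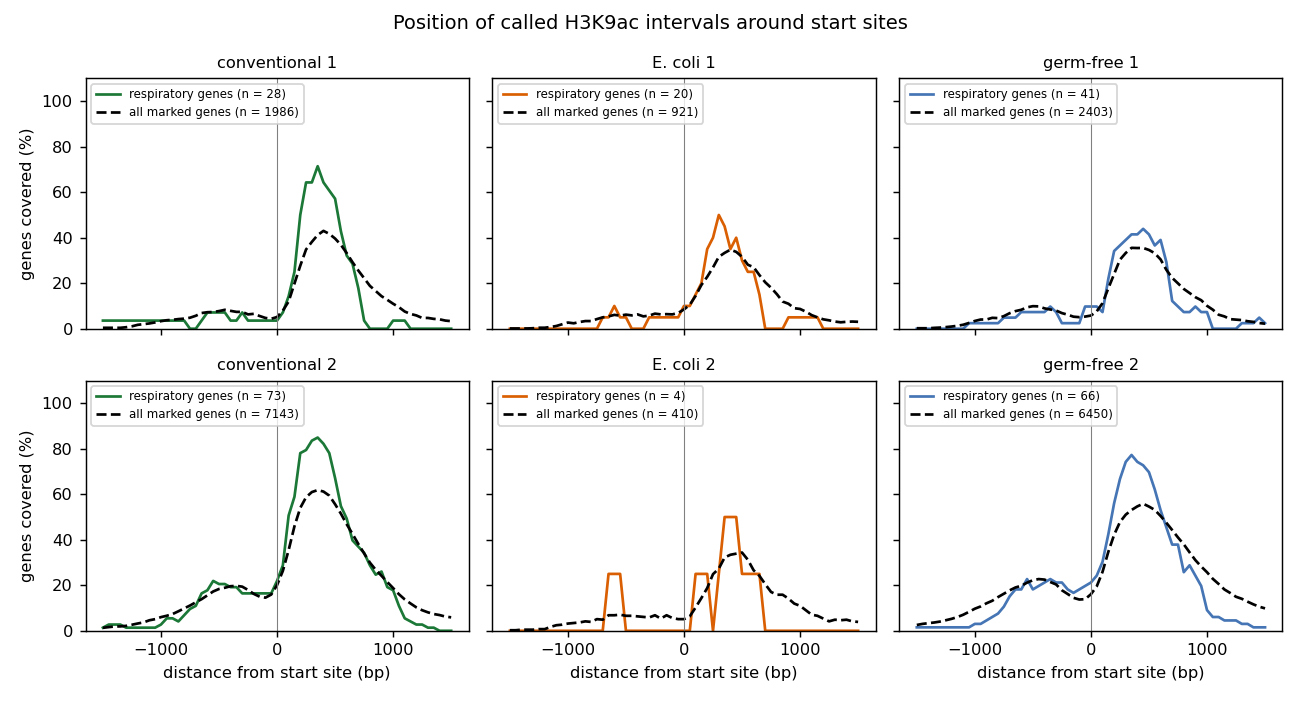
Percent of marked genes with a called interval (vertical axis) at each distance from the start site in bp (horizontal axis; positive is downstream, in the direction of transcription), in steps of 50 bp, for marked respiratory genes (solid) and all marked genes with a known start site (dashed), 1 panel per library. Both curves peak between 300 and 500 bp downstream, and in each library the solid curve peaks higher, at 71.4% against 43.0% in conventional replicate 1. Genes with several start sites are centred on the site of lowest coordinate, and the part of this in the difference was not tested.

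Among the 31 genes marked in 4 or more libraries, 17 had at least 1 base that was called in every library in which they were marked. In all 17 these bases lay downstream of the start, counted from the same start site as above. At Cox7c 389 bp were common to its 5 libraries, from 254 to 642 bp after the start (chromosome 13, 86046153-86046541). At Ndufa6 278 bp were common, from 402 to 679 bp after the start (chromosome 15, 82353612-82353889). At Atp5g3 215 bp were common, from 251 to 465 bp (chromosome 2, 73910829-73911043), and at Uqcrfs1 177 bp, from 195 to 371 bp (chromosome 13, 30544945-30545121). These stretches lie inside the transcribed genes, and therefore downstream of the 50 bases after the start that the printed Atp5g3 promoter includes. Atp5b, Atp5j, Atp5j2, Cycs and Uqcrh had no common base over the libraries in which they were marked.

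The strongest intervals were mostly short. Their median length was 264 and 495 bp in the conventional, 186 and 154 bp in the E. coli-monoassociated, and 186 and 438 bp in the germ-free libraries, against 242 and 406, 201 and 209, and 217 and 387 bp over all marked genes. Intervals of 1000 bp or more stood at 1 of 28 and 2 of 73 genes in the conventional, at none in the E. coli-monoassociated, and at 0 of 41 and 4 of 66 genes in the germ-free libraries. This was 3.57% and 2.74% of marked respiratory genes in the conventional libraries, against 1.86% and 9.83% of all marked genes. In the E. coli libraries it was 0% in both, against 0.651% and 1.46%, and in the germ-free libraries 0% and 6.06%, against 0.955% and 11.7%. The longest was the 2942 bp interval at Uqcrh and Lrrc41 in germ-free replicate 2.

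Few calls stood at the edge of the window. Just inside it were intervals 989 bp from the start of Ndufa13 in conventional replicate 2 (fold 3.62) and 957 bp from that of Ndufa6 in conventional replicate 1 (fold 4.25), and just outside it 1 of Atp5a1, 1150 bp away in germ-free replicate 2 (fold 4.43), and 1 of Uqcrc2, 1262 bp away in germ-free replicate 1 (fold 4.04). Each of these 4 genes had another promoter interval in the same library. Ndufv2, which carries an iron-sulphur cluster near the flavin, was marked in germ-free replicate 1 by 1 interval 897 bp from its start alone. The single call of Ndufaf4, in germ-free replicate 2, likewise rests on 1 interval, 818 bp from its start, and so does the call of Atp5j in E. coli replicate 1 at 883 bp.

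Of the 77 marked genes, 27 had a promoter interval that was also tied to another gene, 35.1% against 23.5% of the 8094 marked genes of any kind, and 23 had no other kind. A start site on the opposite strand lay within 1000 bp for 28 of the 77, 36.4% against 26.5%. Besides Atp5j with Gabpa, Ndufs1 with Eef1b2 and Ndufa7 with Rps28, such pairs were Ndufs3 with Kbtbd4, Cox4i1 with Emc8, Uqcr10 with Zmat5 and Cycs with 5430402O13Rik. For these genes a call marks the shared region and not 1 gene.

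RefSeq promoters were found for 67 of the 80 genes, 65 of them marked. Those without included Atp5a1, Cox4i1, Cox4i2, Cox6c, Cyc1, Ndufa2, Ndufb9, Ndufs1, Sdhc, Uqcrb, Uqcrc2 and Uqcrq. Motifs were searched on both strands of the 300 bases. The NRF1 palindrome, in capitals in 5 of the promoters printed above, was in 7 of the 65 promoters, 10.8%, against 2.60% of the 6620 promoters of all marked genes and 1.33% of all 21262 promoters. The 7 were those of Atp5g2, Atp5k, Cox6a1, Ndufa11, Ndufaf4, Ndufaf5 and Uqcrc1. In the printed promoters it lay at −42 to −33 in Atp5g2, −50 to −41 in Atp5k, −162 to −153 in Cox6a1, −60 to −51 in Ndufa11 and 30 to 39 in Uqcrc1, counted from the start, so it was not at 1 fixed place. The shorter TGCGCA was in 27.7%, against 15.7% of marked and 9.74% of all promoters, and can overlap the palindrome.

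AAGGTCA (ERR) was in 8 of the 65, 12.3%, against 2.87% of marked and 4.08% of all promoters. The 8 were those of Atp5e, Atp5g3, Atp5k, Atp5l, Ndufb2, Ndufb4, Ndufs5 and Sdhd. The longer TCAAGGTCA, which contains it, was in 2, Atp5g3 at −52 to −44 and Sdhd at 36 to 44, against 0.196% of marked and 0.334% of all promoters. Atp5k was the only printed promoter with both an NRF1 and an ERR match, the ERR match at 23 to 29. The long motif of YY1 was in 4 promoters, 6.15%, against 2.09% of marked and 0.889% of all. Its shorter form ATGGCGG, contained in it, was in 10.8%, against 9.89% and 5.24%.

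The other motifs differed in both directions. CCGGAAG, the ETS site read by GABP, was in 23.1% of the respiratory promoters, against 22.9% of marked and 11.6% of all promoters. CCAAT was in 41.5%, against 37.1% and 38.2%, and its 5 matches in Atp5b lay between −222 and −71. TGACGTCA (CRE) was in 7.69%, against 3.60% and 2.23%. TATAAA was in 7.69%, against 6.27% and 12.6%, and CACGTG (E-box) in 9.23%, against 10.3% and 7.84%. GGGCGG, the site of SP and KLF factors, was in 43.1%, against 68.6% of marked and 46.2% of all promoters. The respiratory promoters had a median GC content of 58.7%, against 62.0% of marked and 56.3% of all promoters, and a median of 20 CpG dinucleotides, against 23 and 13. Base composition thus differs between the sets, and its part in the motif shares was not tested. A match in this window is a run of letters and not evidence that a factor binds there.

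**Figure D5:**
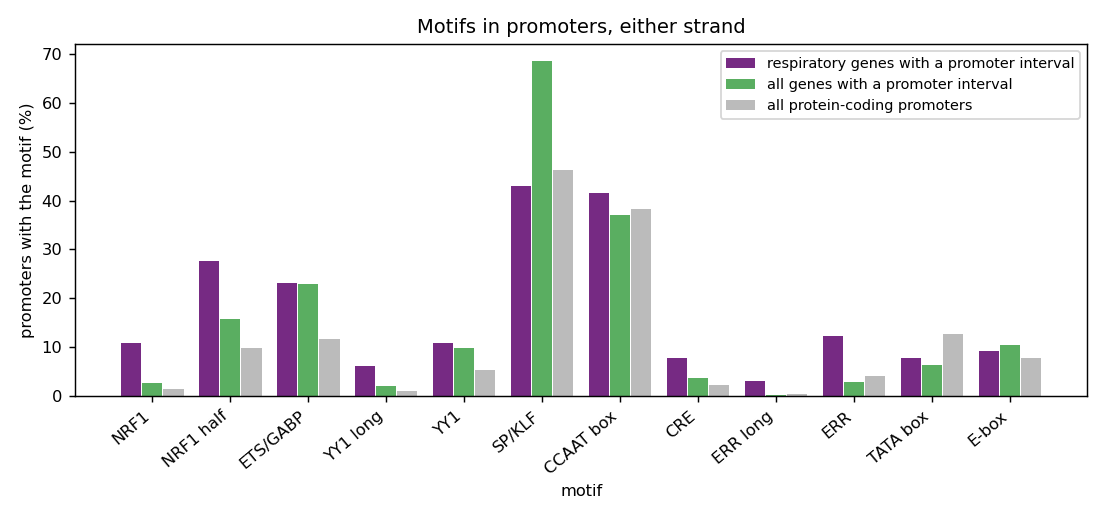
Percent of promoters of 300 bases with each motif on either strand (vertical axis) for 65 marked respiratory genes, 6620 marked genes of any kind and all 21262 protein-coding promoters. The bars for NRF1 stand at 10.8%, 2.60% and 1.33%, those for ERR at 12.3%, 2.87% and 4.08%, and those for SP/KLF at 43.1%, 68.6% and 46.2%.

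Regulators and assembly factors of the chain made up 64 further genes in 6 lists. Of the 64, 1 of which (Dmac2) is the Atp5sl of the lists, 54 were named in a list, and only a named gene could be marked. Of these 54, 51 had a promoter interval in at least 1 library. In the conventional libraries 12 and 45 of the 54 were marked, against 20.5% and 74% of all named genes. In the E. coli libraries 3 and 3 of the 54 were marked, against 9.5% and 4.23%. In the germ-free libraries 10 and 39 of the 54 were marked, against 24.8% and 66.9%. In both conventional and neither E. coli library there were 8 of the 54, against 12.6% of named genes. In both germ-free libraries but no E. coli library there were 5 of the 54, against 15%. Gabpa and Gabpb1, which encode the 2 subunit types of GABP, were the 2 marked in all 6 libraries. Gabpb1 had folds of 7.78 and 15.9 in the conventional lists, 5.92 and 4.28 in the E. coli lists, and 6.93 and 10.8 in the germ-free lists.

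Nrf1 was marked in 5 libraries, with 5.66 and 9.41 in the conventional lists, none and 6.42 in the E. coli lists, and 6.35 and 9.50 in the germ-free lists. Esrra, the gene of an oestrogen-related receptor, had 7.08 and 11.6 in the conventional lists, none in the E. coli lists, and none and 5.70 in the germ-free lists. The coactivator genes Ppargc1a and Ppargc1b, as well as Yy1, were marked in the 2 longest lists only, and Tfam, which encodes the main packaging and transcription factor of mitochondrial DNA, in conventional replicate 2 only. By list, and counting named genes only, 19 of 20 complex IV assembly genes and 16 of 17 regulators were marked at least once. For the other assembly genes it was 6 of 7 for complex I, 3 of 3 for complex II, 3 of 3 for complex III and 4 of 4 for ATP synthase. Among the named assembly genes, only Sdhaf2 was marked in an E. coli library, replicate 1. Of all named genes, 9.5% and 4.23% were marked in the 2 short E. coli lists.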

How the data were processed

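H3K9ac chromatin immunoprecipitation libraries were made with a ThruPLEX kit and read as 50 bp single-end reads, 20 M per library, per the labels. Bowtie 1.2.0, MACS2 2.1.1.20160309 and mm10 were used, per the submitters' processing notes. Calling options and any input control: not given in the sources used here. The authors called peaks per sample, and each deposited list gave the summit pileup (a signal of read coverage), the fold enrichment as a ratio to background, and −log10 p and −log10 q values. For germ-free replicate 2 the deposited lines had 13 cells under 14 header names and no pileup, and columns were identified from the values. That list also had 1 line per interval (17094 lines), whereas every other list had more lines than intervals. In conventional replicate 2, for example, 18032 lines gave 15352 intervals. The reason for this difference in form, and its part in the counts, was not tested. Lines repeating an interval were merged with the strongest summit kept.

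Of 10621 names in the lists, 10566 matched the GRCm38.p6 gene table and 55 did not. A gene was called marked when an interval assigned to it in the deposited list reached within 1000 bp of its start site. Start sites of 380 genes, 5 members included, came from RefSeq, and 102 genes without one were called by the authors' promoter class. This step was tested on simulated data. Percentiles ranked the fold of each gene's strongest promoter interval within its list, ties at their mean rank.

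The members and the gene lists were chosen with earlier results of these data known, so no p-value was computed over them. Genes were named by a rule: members called in all 6 libraries, up to 12 per ordered pair of groups by mean percentile, those called in 1 library or none, and the highest and lowest of each complex. Other genes named to describe a complex, the promoter motifs or the window were chosen after their values were seen. Figures were drawn with matplotlib 3.10.9, and values computed in Python 3.11.15 with NumPy 2.4.6, pandas 2.3.3 and SciPy 1.17.1. A single member enters all counts but is not reported here by name. Mitochondrial intervals were left out of gene counts. Alternatives were a window of 2500 or 500 bp, the authors' promoter class, an overlap of at least 100 bp, a fold or −log10 q of at least 5, the 870 strongest intervals of each list, intervals tied to 1 gene only, subunits only, and each library left out in turn.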

Additional observations from a re-analysis of the deposited data

Results flagged for a closer look

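The lists also held intervals on the mitochondrial genome, which encodes 13 core subunits of the same complexes and is not wrapped around histones. These intervals lie outside the promoter counts. Their highest fold was 39.6 and 34.0 in the conventional lists, 55.0 and 41.3 in the E. coli lists, and 65.2 and 85.5 in the germ-free lists, each at or above percentile 97.7 of its list. They covered 12326 and 12295 bases in the conventional, 11889 and 11847 in the E. coli-monoassociated, and 11896 and 11924 in the germ-free libraries. The genes ND1, ND2, ND5, ND6 and CYTB were covered in full in all 6 libraries, and COX2, ATP8 and ATP6 were not covered in any. Both conventional lists had 2 further intervals, at 9329-9564 and 9719-9923 in replicate 1 and at 9329-9548 and 9739-9937 in replicate 2, over parts of COX3, ND3 and ND4L, which no E. coli or germ-free list held. In all 6 lists the first interval ended between 6482 and 6527, and the last began between 10903 and 10935. The 2 further intervals lie inside that common gap. No test was run on the difference between the lists. The cause of the gap and of the 2 further intervals was not tested.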

How the results depend on the processing

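Of 13 results under 9 other settings, 101 values stayed within the spread between replicates or within 1.5 times the count, and 16 moved. Windows of 2500 or 500 bp, the authors' promoter class, a 100 bp overlap, a fold of at least 5 and subunits only moved none. With every list reduced to its 870 most significant intervals the marked genes averaged 8.5 in the conventional, 5 in the E. coli and 7 in the germ-free libraries. With a −log10 q of at least 5 the mean was 26.5 in the conventional, 2.5 in the E. coli and 29.5 in the germ-free libraries; the conventional and E. coli changes were smaller than the large SD of those groups. For germ-free libraries with intervals tied to 1 gene only the mean was 35. The count in all 6 libraries was 0 under the q threshold and 0 with 870 intervals. For both conventional and neither E. coli it was 9 under the q threshold and 0 with 870 intervals, for both conventional and neither germ-free 2 and 3, for both germ-free and neither conventional 0 and 0, and for both germ-free and neither E. coli 9 and 0. With intervals tied to 1 gene only, both germ-free and neither conventional gave 0, and both germ-free and neither E. coli 12. Leaving out each library in turn moved 13 of 78 values, all of them counts. Group means could not move by this measure, since leaving out 1 of 2 libraries always shifts their mean by less than their SD. The conventional mean of 50.5 thus became 73 or 28 and was still taken as unmoved. Values that do not use the library left out could not move either. The count in all libraries then ran between 1 and 8, both conventional and neither E. coli between 15 and 51, both conventional and neither germ-free between 1 and 7, both germ-free and neither conventional between 1 and 15, both E. coli and neither germ-free between 0 and 1, and both germ-free and neither E. coli between 19 and 44. The cause of these moves was not tested, apart from the shorter lists that the thresholds themselves make. No paired analysis was possible because the results come from no test, and the labels do not say that a shared replicate number marks anything shared between groups. Median summits at respiratory genes had 7.5 to 9 extended reads in the 5 lists with a pileup, and these lists start at a lowest pileup of 4 to 6, so an absent interval does not show an unmarked promoter.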
